A study of Homo sapiens with 10 samples.

Results

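Regions bound by Rb inside genes but away from their promoters were examined in 2 human high-grade serous ovarian cancer lines, OVCAR-3 (OVCAR3) and Kuramochi, both labelled wild type. Cells of each line received INX-315, an inhibitor of CDK2, at 300 nM or the same volume of its solvent DMSO for 2 days. Rb was mapped by CUT&RUN, in which an antibody directs a nuclease to release the DNA around a bound protein, with 2 Rb libraries per line and treatment and 1 IgG2a library per line from DMSO-treated cells. The study set out to learn whether blocking CDK2 changes where Rb sits on chromatin. Each line is an established culture, so the 2 libraries of a group are biological replicates of that culture and not of different tumours.

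Joining every set of Rb peaks on chromosomes 1 to 22 and X with an overlap of 1 bp or more gave 22760 regions over the 8 Rb libraries, of which 14572 held a peak of at least 2 libraries. A region was counted as gene-body when it overlapped a gene of GENCODE release 44 on hg38 but no promoter, a promoter being the span from 2000 bp before to 500 bp after any transcript start. This left 994 gene-body regions, 321 exonic (touching an exon of any transcript) and 673 intronic, beside 12887 promoter and 691 intergenic regions. A further 3108 gene-body regions with a peak in only 1 library were not members. Of the members, 436 held a peak of exactly 2 libraries, 211 of 3, 133 of 4, 77 of 5, 56 of 6, 39 of 7 and 42 of all 8. The edge of the rule was thin in places, since 36 members lay within 100 bp of a promoter window, the nearest at 4 bp, and 48 promoter regions reached into a window by 100 bp or less. A merged region also grows with the number and width of its peaks, so whether it touches a promoter or an exon depends in part on how strongly it was bound.

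Rb is the product of RB1 and represses transcription by binding E2F factors at the promoters of cell cycle genes. Phosphorylation by cyclin-dependent kinases releases it from E2F, and inhibitors of these kinases restore the unphosphorylated, chromatin-bound form. Within genes, introns hold many enhancers and alternative start sites, and CpG islands that lie inside genes often mark such starts or the coding exons of developmental genes.

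The sequence at the summit, the base with most fragments, is shown for 7 members to let the composition of the strongest gene-body sites be seen: the first 2 exonic and first 2 intronic members among those with a peak in every library, followed by the first 2 exonic members and the first intronic member among those with a peak in all 4 INX-315 and no DMSO library. Members were ordered by their percentile of fold enrichment within each list, averaged over the lists that held them. Each line gives 200 bp of the plus strand of hg38 with every CpG in capitals.
GRIN1 chr9:137150765-137150964: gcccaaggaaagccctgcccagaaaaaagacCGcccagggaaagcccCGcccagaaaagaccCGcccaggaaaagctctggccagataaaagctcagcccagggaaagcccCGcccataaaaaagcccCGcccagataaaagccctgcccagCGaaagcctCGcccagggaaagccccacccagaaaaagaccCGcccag
LMTK3 chr19:48493058-48493257: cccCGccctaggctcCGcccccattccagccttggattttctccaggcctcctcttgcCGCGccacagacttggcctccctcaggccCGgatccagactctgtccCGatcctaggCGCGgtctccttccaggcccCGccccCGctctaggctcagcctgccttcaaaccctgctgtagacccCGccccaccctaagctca
PXT1 chr6:36423411-36423610: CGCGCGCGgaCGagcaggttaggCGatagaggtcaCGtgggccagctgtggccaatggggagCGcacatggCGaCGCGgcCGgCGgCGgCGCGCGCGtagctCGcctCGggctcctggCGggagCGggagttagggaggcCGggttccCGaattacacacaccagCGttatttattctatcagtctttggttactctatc
PDE4DIPP2 chr1:120558680-120558879: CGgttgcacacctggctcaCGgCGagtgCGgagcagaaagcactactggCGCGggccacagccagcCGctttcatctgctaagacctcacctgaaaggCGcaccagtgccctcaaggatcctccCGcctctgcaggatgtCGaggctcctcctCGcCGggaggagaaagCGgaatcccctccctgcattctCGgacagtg
NCF1B chr7:73235308-73235507: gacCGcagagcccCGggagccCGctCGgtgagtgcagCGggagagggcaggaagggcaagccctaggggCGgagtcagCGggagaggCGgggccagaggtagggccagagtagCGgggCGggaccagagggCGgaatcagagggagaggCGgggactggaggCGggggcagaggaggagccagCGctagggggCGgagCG
CHD5 chr1:6148602-6148801: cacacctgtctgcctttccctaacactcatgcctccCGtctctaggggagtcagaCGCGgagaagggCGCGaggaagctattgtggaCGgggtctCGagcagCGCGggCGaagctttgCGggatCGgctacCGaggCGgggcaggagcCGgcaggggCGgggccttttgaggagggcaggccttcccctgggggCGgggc
NEK7 chr1:198159211-198159410: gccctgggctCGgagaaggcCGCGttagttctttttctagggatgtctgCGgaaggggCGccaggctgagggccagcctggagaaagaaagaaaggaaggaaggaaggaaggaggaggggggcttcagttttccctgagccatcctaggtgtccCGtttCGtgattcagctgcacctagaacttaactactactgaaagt

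The window in GRIN1 held 8 CpGs and was built of short units that resemble each other, with 63.0% of its bases equal to the base 16 bp further on. The PXT1 window, at 25 CpGs, was the richest in CpG of the 7, and the NEK7 window, at 7, the poorest. Windows in which at least 60% of bases equalled the base at some fixed distance of 8 to 60 bp made up 32 of 994 members (3.22%), against 34 of 12887 promoter regions (0.264%) and 15 of 691 intergenic regions (2.17%). This measure was added after the sequences had been seen and is given with no test.

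Depth was read from the genome-wide background of each list, in fragments covering a base, and spanned 0.380 to 0.502 for DMSO and 0.216 to 0.421 for INX-315. The IgG2a libraries, of 0.527 and 0.444, held 25 and 12 peaks on these chromosomes, and 1 intronic member overlapped any of them. Rb peaks were called against the IgG2a library of the line, which by itself disfavours such overlap. Peaks of members were shallow, with a median of 7 to 12 fragments at the summit per library.

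More gene-body regions held a peak under INX-315 in both lines. The OVCAR-3 DMSO replicates held peaks at 142 and 214 members, and the replicates treated with INX-315 at 567 and 782. Kuramochi replicates held peaks at 130 and 312 members with DMSO, against 673 and 547 with INX-315. The treated and control libraries did not overlap in either line, as the plot of regions per library shows, although the Kuramochi DMSO replicates lay far apart. The group means were 178 ± 50.9 and 674.5 ± 152 regions in OVCAR-3 (SD, n = 2 per group) and 221 ± 129 and 610 ± 89.1 in Kuramochi, DMSO first. On the log2 scale the difference averaged 1.76 over the lines, or 3.39-fold, against a replicate SD of 0.53. An exact two-sided permutation test of treatment within lines gave p = 0.056, the smallest p that 36 arrangements allow, so no treatment comparison permuted within lines can pass 0.05. Permuting over all 8 libraries without regard to line gave p = 0.0286, the smallest that 70 arrangements allow (exact permutation test). The lines differed by 0.34 in this value (exact permutation p = 0.889). Members were chosen by the same peaks that are counted here. Of the 994 members, 525 held no peak in any DMSO library and so entered through the INX-315 libraries alone. With regions of 1 or more lists the log2 difference was 1.92 (exact permutation p = 0.056). The direction depended on list length. When every list of a line was shortened to the length of its shortest list, keeping the peaks with the largest −log10 q-value, the log2 difference was -0.17 (exact permutation p = 0.111).

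**Figure D1:**
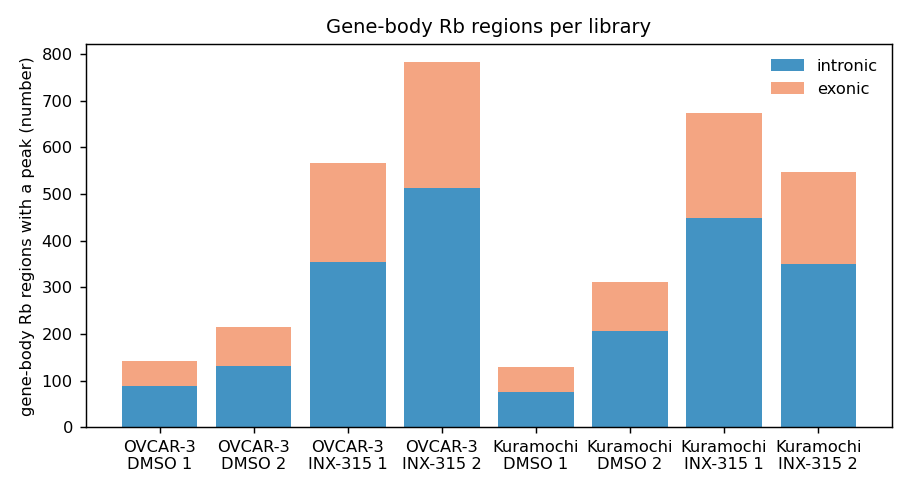
Number of gene-body Rb regions with a peak in each of the 8 libraries, intronic regions in blue and exonic regions stacked above in orange. The 4 INX-315 libraries lie between 547 and 782 regions and the 4 DMSO libraries between 130 and 312.

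Exonic members with a peak numbered 53 and 83 (DMSO) against 213 and 270 (INX-315) in OVCAR-3, whereas the Kuramochi libraries had 54 and 105 against 225 and 196. Intronic members numbered 89 and 131 against 354 and 512, and 76 and 207 against 448 and 351. Group means thus differed 3.55-fold and 2.65-fold for exonic and 3.94-fold and 2.82-fold for intronic members, in OVCAR-3 and Kuramochi respectively. Exonic members made up a mean of 38.1% of those with a peak in OVCAR-3 given DMSO and 36.05% in OVCAR-3 given INX-315, with 37.6% and 34.6% for Kuramochi, a difference of -2.49 percentage points that lay within the replicate SD of 3.15 (exact permutation p = 0.333). Its direction was not stable, at 9.48 points with lists of equal length, 0.31 with a promoter of 5000 bp either side and 2.21 with peaks cut to 200 bp either side of the summit.

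Gene-body regions also took a larger share of all regions in the treated libraries. For OVCAR-3 the share with DMSO was 2.49% (95% Wilson interval 2.11 to 2.92) and 2.98% (2.61 to 3.40), and with INX-315 4.76% (4.39 to 5.16) and 5.71% (5.33 to 6.11). For Kuramochi the DMSO replicates had 2.66% (2.25 to 3.15) and 4.05% (3.63 to 4.52), the treated replicates 5.30% (4.92 to 5.70) and 4.73% (4.36 to 5.14). The treated libraries stood above the controls in both lines, by 2.08 percentage points on average with a replicate SD of 0.65 (exact permutation p = 0.056, the smallest possible). These intervals cover counting error only. With lists of equal length the difference was -0.39 points (exact permutation p = 0.056), so its direction depended on how far down the lists were read.

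**Figure D2:**
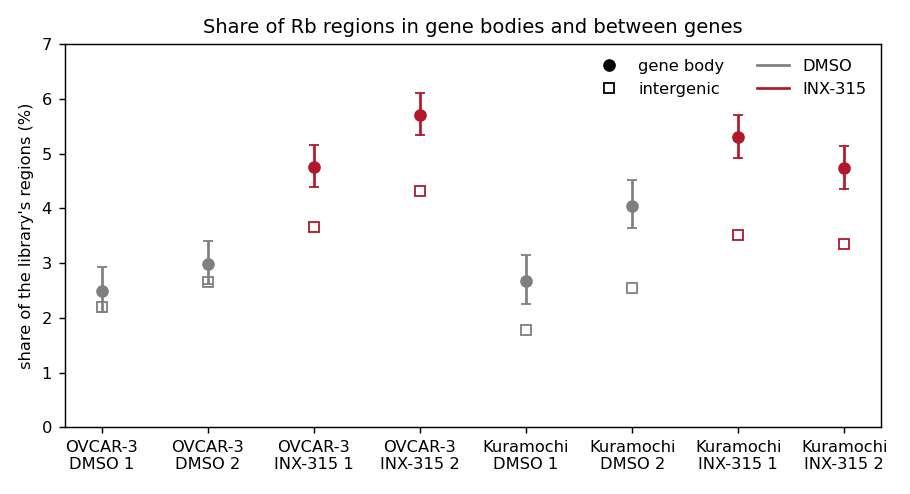
Share of each library's regions that lay in gene bodies (filled circles, bars are 95% Wilson intervals) or between genes (open squares), DMSO in grey and INX-315 in red. Gene-body shares span 2.49% to 4.05% for DMSO and 4.73% to 5.71% for INX-315, and intergenic shares lie below them in every library.

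The same counts were taken for the other classes. Group means of promoter regions stood in a ratio of 1.90 (OVCAR-3) and 1.87 (Kuramochi), those of intergenic regions 3.25 and 2.95 and those of gene-body regions 3.79 and 2.76. The ratio of gene-body to promoter regions was higher under INX-315 by 0.83 on the log2 scale (replicate SD 0.27, exact permutation p = 0.056). For the ratio to intergenic regions the difference was 0.07 (replicate SD 0.05, exact permutation p = 0.278). Regions of every class were chosen by the same peaks that are counted here, and 525 of the 994 members held no DMSO peak. The ratios were not taken with lists of equal length, at which the gene-body share differed by -0.39 points.

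A member counted as gained in a line if peaks were present in each treated library and in no control library, as lost if the opposite held, and as constant if all 4 libraries had peaks. In OVCAR-3, 335 of 994 members (33.7%) were gained, against 28.4% of all and 34.9% of intergenic regions. There 3 members were lost, against 0.0755% of all regions. In Kuramochi, 235 members (23.6%) were gained, against 23.7% of all regions, and 4 were lost, against 0.048%. The Kuramochi share was thus at the background. Both lines gained 58 members (5.84%, against 8.89% of all and 7.8% of intergenic regions). A further 157 were gained in OVCAR-3 and held no peak in any Kuramochi library, and 79 were gained in Kuramochi and held none in OVCAR-3. These line-restricted sets made up 15.8% and 7.95% of members, against 6.05% and 2.53% of all regions. The same shares of intergenic regions alone were not taken. With lists of equal length 20, 10 and 3 members were gained in OVCAR-3, in Kuramochi and in both, and with a promoter of 5000 bp either side 156, 111 and 19. The count rested in part on single libraries, being 211 in OVCAR-3 without INX-315 replicate 2 and 362 in Kuramochi without DMSO replicate 2. For both lines together it was 108 without OVCAR-3 INX-315 replicate 1 and 103 without Kuramochi INX-315 replicate 2.

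Exonic regions gained in both lines were led by NCF1B, CHD5 and COMP. Fold enrichment is the fragments at the summit over the local background, with the same constant added to both, which lowers the ratio. At NCF1B, a transcribed pseudogene copy of the neutrophil oxidase gene NCF1, the region lay at chr7:73235233-73235667 with its summit in intron 10. The region reached a fold enrichment of 11.5 and 22.5 in treated OVCAR-3 and of 17.8 and 12.3 in treated Kuramochi cells. Its reads could not be separated with certainty from those of the near-identical NCF1 copies. CHD5, which encodes a chromatin remodelling ATPase, held a region touching coding sequence at chr1:6148364-6149120, with its summit in intron 9 of a canonical transcript of 42 exons and 4.60 kb from the nearest start. Its fold enrichment was 15.8 and 21.8 in OVCAR-3 and 13.3 and 8.91 in Kuramochi, from 31, 56, 21 and 11 fragments. COMP, a cartilage matrix glycoprotein gene, reached 12.2 and 19.97, and 11.96 and 8.67, at chr19:18784949-18785790 with its summit in intron 15.

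The other exonic regions of this set were smaller. The last exon of CORO6, a coronin of the actin cytoskeleton, held 8.90 and 15.7 in OVCAR-3 against 12.002 and 7.36 for Kuramochi. LMTK3, a membrane-anchored kinase gene, gained a region at chr19:48491012-48491624, its summit in intron 13, with 6.96 and 11.2, and 9.57 and 8.87. That region lies beside the stronger LMTK3 region bound in every library and described below. ENSG00000279286, an unconfirmed transcript on chromosome 14, had 8.20 and 12.8, and 7.83 and 8.22.

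Intronic regions gained in both lines were led by NEK7, a kinase of mitosis and of the inflammasome, in its first intron at chr1:198158685-198159482. Fold enrichment there was 14.4 and 18.4 in OVCAR-3 and 13.5 and 13.0 in Kuramochi. The first intron of the ephrin read-through gene EFNA4-EFNA3 held 9.70 and 9.53, and 14.1 and 8.68. RGS14, a regulator of G protein signalling, held 10.1 and 18.0, and 9.34 and 7.20, also in the first intron.

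The next members of this set lay in later introns. In intron 13 of WDR27, a WD-repeat gene, fold enrichment was 4.28 and 13.4 in OVCAR-3 against 21.3 and 11.04 for Kuramochi. PRKAR1B, a regulatory subunit of protein kinase A, had 7.18 and 12.4, and 9.02 and 9.19, in intron 4, 33.7 kb from its nearest start. The PRKAR1B window was a tandem repeat in which 73.9% of bases equalled the base 24 bp further on. Of the 12 regions of these 2 sets, 9 lay in a gene whose own promoter also held an Rb region, the exceptions being NCF1B, COMP and ENSG00000279286.

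Regions gained in OVCAR-3 and absent from every Kuramochi library were led by LINC01226, a long non-coding RNA gene, with 9.79 and 21.0 in the INX-315 libraries. PRDM8, a PR-domain transcriptional regulator, had 10.7 and 14.8 across its last exon, and ARHGAP39, a GTPase-activating protein gene, had 8.96 and 17.3. Regions gained in Kuramochi and absent from OVCAR-3 were led by FRG1-DT, a divergent non-coding transcript, with 21.5 and 15.3, and by AHDC1, an AT-hook DNA-binding protein gene, with 10.6 and 11.03. The FRG1-DT window repeated itself with a period of 33 bp at 92.8% of bases, and reads in such arrays may map to several places. CYP2F1, a cytochrome P450 gene, had 9.68 and 6.79. No difference between the lines was tested for these regions, because a list gives no value where no peak was called. The median fragments at the summit were 7 and 10 for the 157 OVCAR-3 members and 9 and 6 for the 79 Kuramochi members, so many lay near the limit of detection.

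The 7 lost members were weak. In OVCAR-3, ENSG00000286001, whose nearest transcript start is that of SDHA, had 5.35 and 5.33 with DMSO, RXRA, the retinoid X receptor alpha gene, had 4.41 and 4.35, and HNF4A, a nuclear receptor gene, had 4.38 and 4.41, each from 6 or 7 fragments. In Kuramochi the 3 of highest rank were ROBO2, an axon guidance receptor gene, with 5.54 and 6.52, PVT1, a long non-coding RNA gene, with 4.40 and 4.42, and EFNA5, an ephrin gene, with 4.15 and 4.84. The ROBO2 window was again a repeat, with 83.0% of bases equal at 29 bp, and held no CpG.

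A peak in all 8 libraries was found for 42 members (4.23%, against 22.4% of all and 5.93% of intergenic regions), 21 exonic and 21 intronic. The same regions are thus compared in every library, but they were chosen because a peak was called in all 8. A fold enrichment exists only at a called peak, so the values hold for these 42 alone. For OVCAR-3 the median over the 42 was 7.91 and 8.75 with DMSO, against 17.4 and 27.8 with INX-315. For Kuramochi the corresponding medians were 7.84 and 9.37, against 17.8 and 14.6, with no overlap of treated and control libraries. The difference averaged 1.16 on the log2 scale, or 2.23-fold, with a replicate SD of 0.28 (exact permutation p = 0.056, the smallest possible). Promoter regions with a peak in all 8 libraries, 3186 in number, differed by 1.35, and the difference of -0.19 between the classes had an exact permutation p of 0.111. Taken as summit height over the genome-wide background, the log2 difference for the 42 members was 1.56 (exact permutation p = 0.056).

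**Figure D3:**
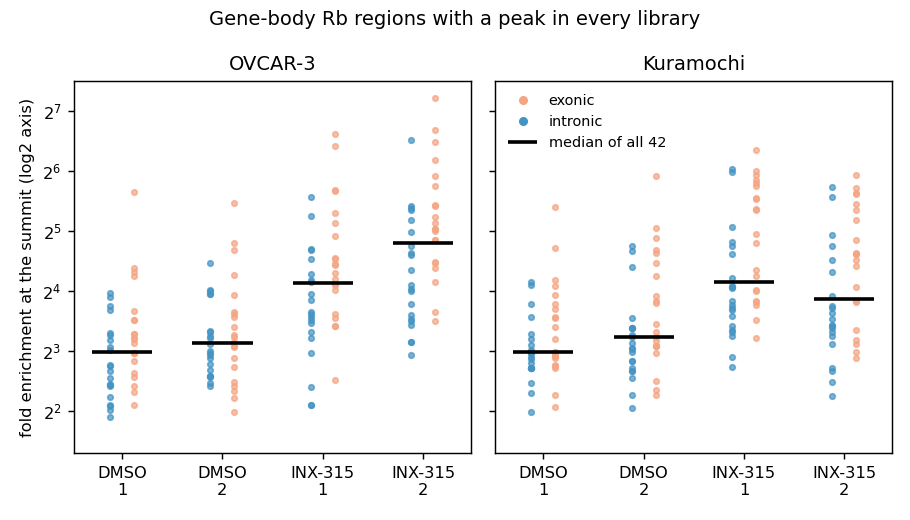
Fold enrichment at the summit on a log2 axis for each of the 42 gene-body regions with a peak in every library, exonic in orange and intronic in blue, with the median of all 42 as a black bar. Medians span 7.84 to 9.37 for DMSO and 14.6 to 27.8 for INX-315.

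The 6 exonic regions of highest rank with a peak in every library touched an exon, but all had their summit outside exons. The strongest gene-body region lay in GRIN1, which encodes the obligatory subunit of NMDA receptors, at chr9:137149983-137151699 with its summit in intron 4. DMSO replicates of OVCAR-3 had a fold enrichment of 49.8 and 44.2 there and treated replicates 97.6 and 89.1, and in Kuramochi 41.9 and 59.8 stood against 80.7 and 49.4. The treated libraries were higher in OVCAR-3 and overlapped the controls in Kuramochi. LMTK3 held 20.8 and 27.7 against 85.0 and 148 in OVCAR-3 and 15.2 and 25.5 against 63.5 and 52.5 in Kuramochi, at chr19:48492504-48494321 touching coding exons with its summit in intron 12, 5.25 kb from the start. No overlap between treatments was seen there. CCM2L, a scaffold related to the cerebral cavernous malformation protein CCM2, held 19.0 and 25.5 against 50.8 and 72.6, and 13.8 and 24.6 against 45.9 and 28.6, in a gene whose promoter held no Rb region.

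SFN encodes 14-3-3 sigma, a p53-induced brake on entry into mitosis, and its exonic region at chr1:26864268-26865915 was the strongest member with an E2F motif. The region touched the gene, but its summit and the motif window lay past the 3′ end of SFN. It had 19.8 and 12.5 with DMSO against 34.8 and 60.2 with INX-315 in OVCAR-3, and 18.1 and 29.3 against 57.3 and 60.7 in Kuramochi. RYR1, the calcium release channel of skeletal muscle, had 12.6 and 19.2 against 51.2 and 102, and 10.6 and 13.8 against 61.0 and 40.7. SRF, a MADS-box factor that drives growth-induced and cytoskeletal genes, had 7.75 and 15.2 against 23.3 and 28.8, and 26.2 and 33.0 against 55.5 and 48.7. Treated and control libraries were separate at SFN, RYR1 and SRF in both lines. The RYR1 window repeated with a period of 52 bp at 67.6% of bases.

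Among intronic members with a peak in every library, PXT1, a testis-enriched gene, came first at chr6:36423031-36424068, 19.3 kb from its nearest start. Its fold enrichment was 12.8 and 16.2 against 37.9 and 42.7 in OVCAR-3 and 17.1 and 25.4 against 62.9 and 47.0 in Kuramochi. PDE4DIPP2, a pseudogene with close copies elsewhere on chromosome 1 whose reads are therefore uncertain, had 15.6 and 22.1 against 47.0 and 90.9, and 11.8 and 21.0 against 33.5 and 30.4. The non-coding gene ENSG00000230490 on chromosome 13 had 13.4 and 15.98 against 22.96 and 41.5, and 17.7 and 26.8 against 65.1 and 52.8. All 3 were higher in both treated libraries than in both controls of each line.

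TMEM217, a transmembrane protein gene, had 9.01 and 15.3 against 19.4 and 36.03, and 13.8 and 10.4 against 28.0 and 22.8, in its first intron. ENSG00000254553, at a window of 84.5% GC, had 8.37 and 9.88 against 25.8 and 40.8, and 8.11 and 7.91 against 26.9 and 26.9. SLC12A5, the neuronal potassium-chloride cotransporter gene, had 14.9 and 15.5 against 18.0 and 24.2, and 7.84 and 9.57 against 16.9 and 11.5. In all 12 named regions but GRIN1, the treated libraries of each line lay above its controls.

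Constant members were compared in the same way. In OVCAR-3, 75 of 88 constant members had both INX-315 values above both DMSO values, against 94.0% of all constant regions, and 1 had both below, against 0.0409%. In Kuramochi the numbers were 74 of 101, against 88.5%, and 3, against 0.31%. The share of 85.2% in OVCAR-3 and 73.3% in Kuramochi was thus under the background. The median ratio of INX-315 to DMSO was 2.27 and 1.76 for members against 2.80 and 2.16 for promoter regions. Intergenic regions resembled members, at 85.2% and 67.6% with median ratios of 2.42 and 1.70. The difference of the ratios was not tested per region.

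Position within the host gene set exonic and intronic members apart. The host was protein-coding for 800 of 994 members, a long non-coding RNA gene for 168 and of another kind for 26, and 904 different genes served as hosts. For the 123 members that overlapped several genes the host was the protein-coding gene, then the gene with an exon in the region, then that of the nearest start. Summits lay within 5 kb of a transcript start for 489 members (49.2%) and beyond 20 kb for 128. Of the intronic members 287 (42.6%) had their summit in intron 1 of the canonical transcript, whereas 110 exonic members (34.3%) had it in the last exon. Counted along the host gene from its 5′ end, 201 intronic members (29.9%) lay in the first 20% of its length and 141 exonic members (43.9%) in the last 20%. The summit lay past an end of the host gene for 18 members (1.81%), and in an exon of any transcript for 193 exonic members (60.1%). Of the exonic members, 211 touched coding sequence and 147 an untranslated region.

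**Figure D4:**
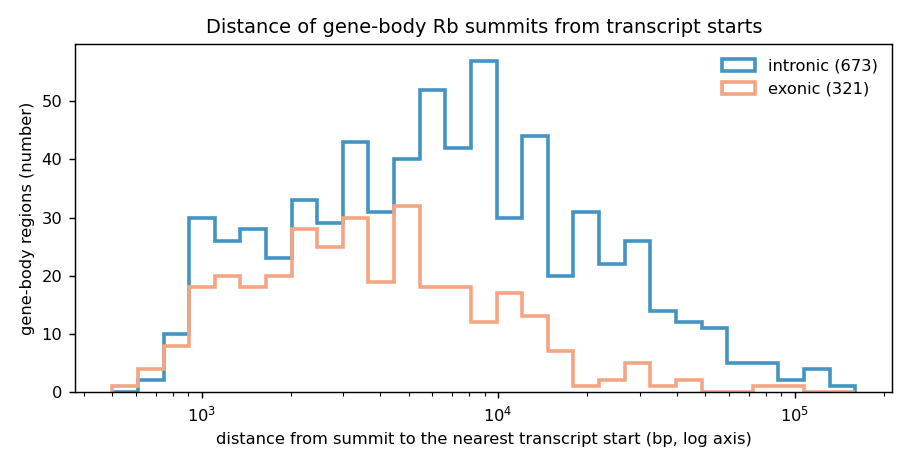
Distance from the summit of each gene-body region to the nearest transcript start of any gene on a log axis, for 673 intronic (blue) and 321 exonic (orange) regions. The median distance was 6.34 kb for intronic and 3.27 kb for exonic regions, and the promoter window removes summits close to a start.

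The promoter of the host gene held an Rb region for 674 members (67.8%). Among the 800 members with a protein-coding host it did so for 606 (75.8%), and among all 19962 protein-coding genes the promoter of 12534 (62.8%) held one. Genes with a member were longer (median 65.9 kb, against 27.5 kb for all protein-coding genes), and the part of length in this was not tested. Of the members, 89 (8.95%) lay within 1 kb of any promoter region and 637 (64.1%) lay over 10 kb from the nearest. Among the 269 members gained in OVCAR-3 with a protein-coding host, the host promoter held a peak in both DMSO libraries for 85, held one only under INX-315 for 47 and held none for 71, that is 31.6%, 17.5% and 26.4%, against 27.2%, 15.9% and 38.5% of all protein-coding genes. Among 185 such members in Kuramochi the numbers were 44, 36 and 55, or 23.8%, 19.5% and 29.7%, against 25.2%, 13.8% and 40.04%. Chromosome 19 held most members, 118, at 20.1 per 10 Mb, followed by chromosome 1 with 111. Members made up 10.4% of the regions of chromosome 19 and 10.3% of those of chromosome 20, beside 994 of 14572 over all chromosomes. Chromosome 19 also held 967 of the 12887 promoter regions.

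Several genes held more than 1 member, 67 in all. BCOR, which encodes a corepressor of BCL6 and subunit of a variant Polycomb complex, held 6, all intronic, and 1 of these had a peak in every library. That region, at chrX:40106089-40106796, had 4.21 and 5.97 against 4.26 and 8.82 in OVCAR-3 and 3.92 and 4.14 against 7.41 and 5.56 in Kuramochi, so treated and control libraries overlapped in OVCAR-3. Another at chrX:40094177-40095145 was gained in both lines, with 5.36 and 6.34, and 5.31 and 4.73. RAI1, a nuclear protein gene whose loss causes Smith-Magenis syndrome, held 5, of which the region at chr17:17751935-17752578 was highest, with 5.10 in 1 DMSO library against 12.8 and 22.3 in OVCAR-3 and 10.6 and 7.402 under INX-315 alone in Kuramochi.

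AHDC1, CELSR2, SIPA1L3 and GSE1 held 4 members each. In AHDC1 1 region was bound in every library, with 9.61 and 7.37 against 9.93 and 15.9 in OVCAR-3 and 8.58 and 11.6 against 13.0 and 10.7 in Kuramochi. The 3 other AHDC1 regions held peaks of both Kuramochi INX-315 libraries and of no DMSO library. In SIPA1L3, a RapGAP-related gene, 2 of 4 regions were gained in OVCAR-3 and absent from Kuramochi, and in GSE1, a component of histone deacetylase and demethylase complexes, the 4 regions were all gained in OVCAR-3, with fold enrichment from 3.55 to 7.21. All GSE1 values in the treated OVCAR-3 libraries lay below the medians of members there, 6.12 and 7.33.

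Base composition separated gene-body regions from promoter regions within every library, and the median CpG ratio also separated them from intergenic regions. In the 200 bp around the summit, the CpG observed-to-expected ratio had a median of 0.605 ± 0.035 in gene-body regions (SD over 8 libraries), 0.688 ± 0.019 in intergenic regions and 0.846 ± 0.0093 in promoter regions. Gene-body regions were lower than intergenic regions in 8 of 8 libraries, by 0.084 (exact sign-flip permutation test over 8 libraries, adjusted p = 0.0211 over 27 contrasts), and lower than promoter regions in 8 of 8 by 0.242 (adjusted p = 0.0211 by the same permutation test). GC content was 5.38 percentage points below that of promoter regions in 8 of 8 libraries (permutation adjusted p = 0.0211), while the difference of -0.59 points from intergenic regions did not pass (6 of 8 lower, permutation adjusted p = 0.274). Exonic members alone stood at 0.680 in CpG ratio and 67.6% GC, against 0.688 and 64.6% in intergenic regions. Exonic members were not tested against intergenic regions. The 8 libraries share their cell lines and many regions, and the p-values cover no more than these libraries.

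Exonic and intronic members differed in the same measures. The CpG ratio was 0.680 ± 0.038 in exonic and 0.529 ± 0.056 in intronic members (SD, 8 libraries), higher in exonic members in 8 of 8 libraries (permutation adjusted p = 0.0211), and GC content was 67.6% against 61.7% (8 of 8, permutation adjusted p = 0.0211). Windows with at least 50% GC and a CpG ratio of at least 0.6, the usual composition of a CpG island, made up 196 of 321 exonic (61.1%) and 252 of 673 intronic members (37.4%), beside 55.1% of intergenic and 86.0% of promoter regions. Exonic peaks were also stronger and wider, with a median log2 fold enrichment higher by 0.19 (7 of 8 libraries, permutation adjusted p = 0.0301) and a width greater by 77.9 bp (8 of 8, permutation adjusted p = 0.0211). A wider region is more likely to touch an exon, and with exonic restricted to summits inside an exon these differences were 0.057 (permutation adjusted p = 0.295) and 8.75 bp (permutation adjusted p = 0.712).

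**Figure D5:**
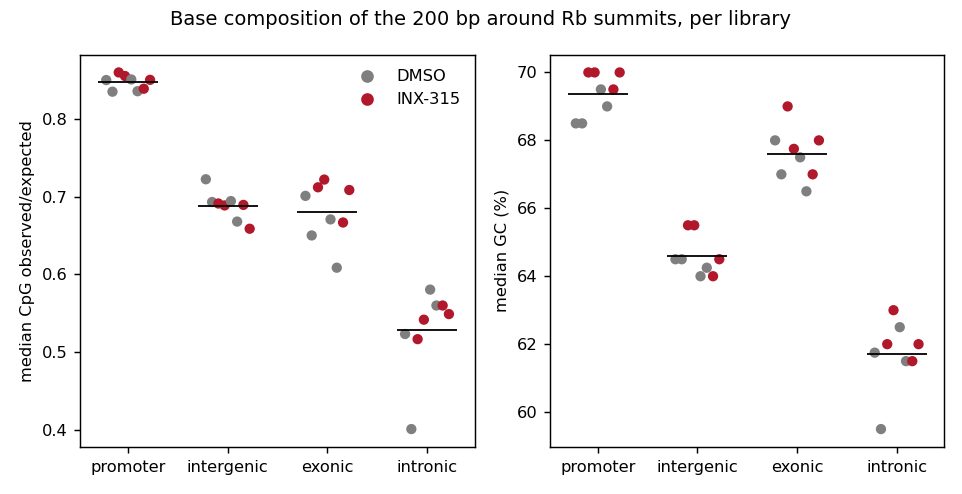
Median CpG observed-to-expected ratio (left) and GC content (right) of the 200 bp around the summit for each library and class, DMSO in grey and INX-315 in red, with the mean of the 8 libraries as a bar. Intronic regions lie lowest at 0.529 and promoter regions highest at 0.846 in CpG ratio, and the libraries of these 2 classes do not overlap.

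The E2F motif, sought as TTTCCCGC, TTTGGCGC, TTTCGCGC or TTTGCCGC on both strands, was present at 42 of 994 members (4.23%), at 4.45% of all regions and at 4.45% of promoter regions. Per library, the share in the 200 bp at the summit averaged 4.88% of gene-body, 4.57% of intergenic and 5.06% of promoter regions. Neither difference passed (permutation adjusted p = 0.743 and 0.569). With the whole peak, gene-body regions differed by -1.79 points from intergenic and -6.08 from promoter regions (permutation adjusted p = 0.0132 each). The part of peak width in this was not tested. Adding single-library regions gave -1.50 points against promoter regions (permutation adjusted p = 0.0151). The motif is shown in capitals for the 2 exonic and 2 intronic members of highest rank outside untranslated regions and with a named protein-coding host, with 12 bp on either side and read along the strand that carries it.
SYNPO chr5:150656635-150656666, minus strand: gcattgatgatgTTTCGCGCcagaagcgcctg
CACNG8 chr19:53978637-53978668, minus strand: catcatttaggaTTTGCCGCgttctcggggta
ERCC1 chr19:45444408-45444439, minus strand: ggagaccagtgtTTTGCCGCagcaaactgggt
LGR4 chr11:27444262-27444293, minus strand: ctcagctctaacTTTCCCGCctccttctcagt

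SYNPO, an actin-associated protein gene, had 6.22 and 4.11 with DMSO against 5.08 and 13.9 with INX-315 in OVCAR-3, and a peak of 6.55 in 1 Kuramochi DMSO library against 15.8 and 11.7. ERCC1, a subunit of a DNA repair endonuclease, had 5.63 in 1 OVCAR-3 DMSO library against 7.76 and 8.28, and 11.1 and 9.28 under INX-315 alone in Kuramochi. LGR4, an R-spondin receptor gene, had 8.84 in OVCAR-3 DMSO replicate 1 and 4.65 in Kuramochi INX-315 replicate 1 and no other peak. Of the 42 members with the motif, 28 (66.7%) held a peak in at least 1 DMSO library, against 469 of all 994 members (47.2%). In OVCAR-3, 2 of the 42 (4.76%) were gained, ENSG00000289768 and LINC02669, and in Kuramochi 14 (33.3%), beside 33.7% and 23.6% of all members. The other classes also held a DMSO peak more often where the motif was present, at 66.7% against 46.5% of intergenic and 81.2% against 71.1% of promoter regions, and 18.3% of promoter regions with the motif were gained in OVCAR-3 against 28.1% without it. These counts were looked at after the motif had been mapped and are given with no test.

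The cell cycle homology element CHR (TTTGAA) was present at 59 members (5.94%) and the AP-1 site (TGACTCA or TGAGTCA) at 37 (3.72%), against 3.98% and 1.57% of all regions, both strands counted. Within libraries both were more frequent in gene-body than in promoter regions, by 2.85 and 2.36 percentage points (8 of 8 libraries each, permutation adjusted p = 0.0211), beside the lower GC content of the gene-body windows. With the whole peak in place of the 200 bp, the CHR difference from promoter regions was -2.46 points (permutation adjusted p = 0.0949). Intergenic regions held CHR at 6.22% and AP-1 at 3.62%. Within libraries the differences from them were 1.52 and 0.61 points (5 of 8 libraries higher each, permutation adjusted p = 0.188 and 0.244). For AP-1 it passed under some alternatives, with 2.16 points for the whole peak (permutation adjusted p = 0.0132). AP-1 differed by -2.00 points between exonic and intronic members (7 of 8 libraries lower, permutation adjusted p = 0.0301), but at a −log10 q-value of at least 3 and with exonic restricted to summits inside an exon, -2.18 and -1.64 points did not pass (permutation adjusted p = 0.0527 each). The oestrogen response element GGTCANNNTGACC was found at no member in the 200 bp at the summit, and within libraries at 0.0148% of promoter regions or fewer. The NRF1 motif stood at 4 members, 3 of them exonic. Within libraries its share was 0.66 points higher than in intergenic regions and 2.33 points higher in exonic than in intronic members (7 of 8 libraries and permutation adjusted p = 0.0301 each). Neither passed throughout, with 0.11 points for the wider promoter (permutation adjusted p = 0.984) and 0.97 points for exonic by summit (permutation adjusted p = 0.114).

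Host genes were set beside 7 lists of genes. A member overlapped 755 of 19962 protein-coding genes (3.78%), a member gained in OVCAR-3 overlapped 266 (1.33%) and a member gained in Kuramochi 187 (0.937%). Of 56 cell cycle genes regulated by E2F, only E2F2, itself an E2F factor, held a member, with 4.21 in 1 DMSO and 4.96 in 1 INX-315 library of OVCAR-3. None of 30 mitotic genes and none of 30 genes of the Rb family, cyclin-dependent kinases and their inhibitors held any. These counts exclude promoters and say nothing of Rb binding there.

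Of 72 homeodomain and paired-box developmental genes, of median length 8.35 kb, 11 (15.3%) held a member, among them DLX2, EVX2, HOXB3, HOXD3, LMX1A, LMX1B, PAX2, PAX3 and PAX8. HOXD3, a patterning gene of the HOXD cluster, held a region at chr2:176140393-176141208 with its summit outside the canonical transcript. Its peaks were in OVCAR-3 alone, with 8.70 and 9.95 (DMSO) and 9.94 and 25.9 (INX-315). A second region overlapping HOXD3 had its summit in intron 1 of HOXD4 and held weaker peaks in both lines. PAX8, a lineage factor of Müllerian epithelium, held an exonic region at chr2:113225867-113226449, in intron 10 of the canonical transcript but over an exon of another, that was gained in OVCAR-3 with 9.87 and 10.1 and held a peak of 6.31 in 1 Kuramochi INX-315 library. PAX3 was gained in OVCAR-3 with 6.15 and 6.63, but held a peak of 4.24 in 1 Kuramochi DMSO library and none under INX-315 there. PAX2 was gained in Kuramochi with 3.56 and 4.93, from 4 and 5 fragments. Of 30 serous ovarian lineage and surface genes, 1 held a member, again PAX8.

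Of 50 oestrogen response genes, CELSR2, STC2 and SVIL (6%) held members. CELSR2, an atypical cadherin gene, held 4 and was the only list gene with a gained member in both lines. Its region at chr1:109253332-109254595 was gained in OVCAR-3, with 5.13 and 6.18, and constant in Kuramochi, with 9.86 and 7.77 against 13.9 and 9.87, while the region at chr1:109254647-109255460, which carries an E2F motif, was gained in Kuramochi with 5.98 and 4.73. STC2, a secreted stanniocalcin, was gained in OVCAR-3 with 4.49 and 4.097. Of 50 genes of TGF-beta, Wnt, Notch and Hippo signalling, 6 (12%) held a member, at a median length of 61.9 kb for the list. HEY1, a Notch target, was gained in OVCAR-3, and the Wnt receptor FZD7, the SMAD corepressor SKI and the Wnt effector TCF7L1 in Kuramochi, all with fold enrichment under 7. HES1, another Notch target, held peaks in both lines without meeting the rule for a gain, and SMAD3 had 1 weak peak in each treatment of OVCAR-3.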

How the data were processed

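Rb CUT&RUN was analysed in 8 Rb libraries (OVCAR-3 and Kuramochi, DMSO or 300 nM INX-315, 2 replicates each) with 2 IgG2a libraries, grouped by their labels. Reads were trimmed, aligned to hg38 (Bowtie2 2.3.4.1 in the submitters' processing notes) and stripped of blacklisted and mitochondrial reads with duplicates kept, and the authors called peaks per library with MACS2 2.2.7.1 against the IgG2a library of the line at a q-value threshold of 0.05. The deposited lists give a fold enrichment, a linear ratio at the summit written by the authors' caller, and −log10 p-values and −log10 q-values, also as deposited by the authors. They hold no read totals.

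Regions were merged at an overlap of 1 bp and kept when present in 2 lists. Fragments at the summit were recovered from fold and p-value (relative tolerance 3e-05, for 98.6% or more of the peaks of each Rb library), and the lowest background of a list served as depth. It was 0.216 to 0.502 fragments per base, so a peak at the median of a member rests on few fragments. A list cannot show weaker binding, and its length depends on depth and enrichment.

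Treatment was tested by exact permutation within lines, classes by sign flips over libraries (256 arrangements, smallest p 0.00781) with Benjamini-Hochberg adjustment over 27 contrasts. Scripts were tested on simulated data. Python 3.11.15, pandas 2.3.3, scipy 1.17.1 and pysam 0.24.0 were used. All symbols of the gene lists matched the annotation, 1 through an older symbol. Regions were named by rank of mean percentile: 6 exonic and 6 intronic with a peak in all 8 libraries, 6 and 6 with a peak in all 4 INX-315 and no DMSO library, 3 per line gained in that line only, 3 lost per line, the 6 protein-coding genes with most members, and list genes gained in both lines. Other genes named from the lists or for an E2F motif, and the windows with tandem repeats, were picked after their values were seen. Some regions and genes that these rules name are not reported here. The members, gene lists and tests were chosen with earlier results of these data known. Alternatives changed the promoter, the number of lists, the q-value threshold, list length, peak width, gene type, libraries and permutation scheme. Differential read counts were not used here.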

Additional observations from a re-analysis of the deposited data

How the results depend on the processing

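Shortening the lists of a line to equal length reversed the gene-body log2 difference to -0.17, the share to -0.39 points and the exonic share to 9.48 points, and left 20 gained regions in OVCAR-3, 10 in Kuramochi and 3 in both; fewer peaks of the treated lists entered by construction. A promoter of 5000 bp either side gave an exonic share of 0.31 points and 156, 111 and 19 gained regions, peaks cut to 200 bp either side an exonic share of 2.21 points, and presence in 3 lists 178 and 156 gained regions. Permuting labels over all 8 libraries (70 arrangements) kept 1.76 and 2.08 with an exact permutation p of 0.0286. Leaving out 1 library in turn gave 1.41 to 2.07 (count), 1.32 to 2.39 points (share), -4.47 to -0.46 points (exonic share), 0.98 to 1.22 (fold enrichment), and 211 to 424, 217 to 362 and 63 to 108 gained regions in OVCAR-3, Kuramochi and both. With all single-library regions, gene-body minus intergenic was -0.05 in log2 fold, -19.5 bp in width and 1.67 points in CHR, and gene-body minus promoter -1.50 points in E2F, 0.0067 in oestrogen element and -0.18 in NRF1. At a −log10 q of at least 3 the width difference from intergenic regions was -18.8 bp and AP-1, exonic minus intronic, -2.18 points (adjusted permutation p = 0.0527). The wide promoter gave 3.06 points in AP-1 and 0.11 in NRF1 against intergenic, and 3.11 in CHR and -0.48 in NRF1 against promoter regions. Protein-coding genes alone gave 1.47 points in AP-1 against intergenic regions. The whole peak gave -1.79 (E2F), -0.21 (CHR) and 2.16 points (AP-1) against intergenic, and -6.08 (E2F), -2.46 (CHR), -0.05 (oestrogen element) and -1.11 points (NRF1) against promoter regions. Exonic by summit, exonic minus intronic was 0.057 in log2 fold, 8.75 bp in width, -3.03 (CHR), -1.64 (AP-1) and 0.97 points (NRF1). The cause of these shifts was not tested. The replicate block, sign flips of same-numbered pairs, kept 1.76, 2.08, -2.49 and 1.16 with exact p of 0.125 (the smallest possible), 0.125, 0.5 and 0.125; same-numbered samples did not deviate together (correlations -0.04 and 0.00 over 3269 regions), so the numbers do not pair them. The CpG and GC differences kept direction and side of the threshold under all alternatives run.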

Other observations

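The presence pattern of gene-body regions across lines was as follows. Of the 335 members gained in OVCAR-3, 58 were also gained in Kuramochi, 16 were constant there, 104 had another mixture of peaks and 157 had none. Of the 235 members gained in Kuramochi, 11 were constant in OVCAR-3, 87 had another mixture and 79 had none. Of the 994 members, 228 met none of the rules in either line.

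The composition of members followed where they lay. Exonic members were hosted by a protein-coding gene in 276 of 321 cases (86.0%) and intronic members in 524 of 673 (77.9%). The host promoter held an Rb region for 185 exonic (57.6%) and 489 intronic members (72.7%). Summits beyond 20 kb from any start numbered 12 exonic (3.74%) and 116 intronic (17.2%). These are counts over regions, given with no test.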
